A study of Mus musculus with 8 samples.

Results

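The 5 genes described here encode the nuclear receptor PPAR alpha (Ppara), 2 enzymes of mitochondrial fatty acid oxidation (Cpt1a and Acaa2), a peroxisome division protein (Pex11a) and apolipoprotein E (Apoe). They were chosen by name among the 46 genes whose probe was paired with a gene through its accession, each probe being printed as 10 spots on every array. RNA of the parotid, a large serous salivary gland below the ear, came from male mice aged 16 weeks and was hybridised to 8 one-colour microarrays, 4 per group. The db/db mice, weighing 40 to 55 g, were leptin receptor-deficient and develop type 2 diabetes spontaneously. The db/m mice, weighing 25 to 30 g, were the age-matched comparison group, and db/m usually denotes heterozygous carriers that stay lean. The leptin receptor defect is present in the whole body, and all mice were under chloral hydrate anaesthesia when the glands were taken. The study describes 4 db/db mice and gives no count of db/m mice, so the db/m arrays may not come from different animals, and every p-value here measures just the spread between these samples, which may be technical.

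PPAR alpha is activated by fatty acids and, paired with a retinoid X receptor, turns on genes that burn fat in mitochondria and peroxisomes. Cpt1a attaches long-chain fatty acids to carnitine for entry into mitochondria. Acaa2 is the thiolase whose cleavage shortens the chain at the end of each oxidation cycle. Pex11a, Cpt1a and Acaa2 are known as PPAR alpha targets in liver, whereas Apoe, a ligand of lipoprotein receptors, is better known as a target of liver X receptors.

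Apoe was higher and Ppara was lower in the parotid glands of db/db mice, while Cpt1a, Acaa2 and Pex11a did not pass the test. Apoe rose 1.89-fold (95% interval 1.31 to 2.71) and Ppara fell 1.69-fold (95% interval 1.22 to 2.33). Acaa2 and Cpt1a, the oxidation enzymes, lay on the higher side in db/db at 1.27-fold (1.05 to 1.55) and 1.13-fold (0.897 to 1.42), with limma adjusted p of 0.0653 and 0.413. Pex11a stood at 0.968-fold (0.845 to 1.11, adjusted p = 0.728). All 5 probes were well above background on all 8 arrays. At an adjusted p below 0.05 over all probes, 2 of the 5 genes were called, against 27.8% of the 54638 probes tested and 55.8% of the 43 protein coding genes with a named probe, so the share of 40% among the 5 genes is not read as a property of them. At 2-fold or more 0 of the 5 were called, against 5.17% of probes. The groups lay apart without overlap for 1 of the 5, against 30.7% of probes, of which 16.9% had db/db wholly above and 13.8% wholly below. All fold changes come from log2 intensities scaled to the 75th percentile of each array, and levels below are on that log2 scale.

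The share of spots well above background was 89.4% to 92.3% on db/db arrays and 85.3% to 89.3% on db/m arrays. Array-wide values correlated at 0.987 to 0.995 within groups and 0.972 to 0.982 between groups. Numbers in the barcode field of each array's header were read here as slide row and slide column, a meaning that the labels do not spell out. By that reading the db/db arrays filled 1 row and the db/m arrays the other, so slide row and group cannot be told apart. Of 11 listed acinar markers 0 had a named probe, so the labelled tissue was not checked against its markers. In a whole gland, fewer cells of a type and less RNA per cell cannot be told apart.

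The start-site regions of the receptor and of 2 target genes are shown because the receptor family binds the hexamer AGGTCA, typically as a repeat with a 1-base spacer. The 250 bases upstream of the start are from RefSeq on GRCm38.p6, in which 4 of the 5 genes (all but Acaa2) were matched by symbol, with 1 start each for Ppara, Cpt1a and Pex11a and 3 for Apoe. Capitals mark AGGTCA on either strand, here as TGACCT.
Ppara, chr15:85735526-85735775, plus strand: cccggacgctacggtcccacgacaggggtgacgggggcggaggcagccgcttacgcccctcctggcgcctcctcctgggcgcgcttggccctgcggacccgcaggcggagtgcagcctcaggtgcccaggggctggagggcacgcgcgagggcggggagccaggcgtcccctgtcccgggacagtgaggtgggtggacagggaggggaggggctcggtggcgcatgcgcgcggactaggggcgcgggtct
Cpt1a, chr19:3323051-3323300, plus strand: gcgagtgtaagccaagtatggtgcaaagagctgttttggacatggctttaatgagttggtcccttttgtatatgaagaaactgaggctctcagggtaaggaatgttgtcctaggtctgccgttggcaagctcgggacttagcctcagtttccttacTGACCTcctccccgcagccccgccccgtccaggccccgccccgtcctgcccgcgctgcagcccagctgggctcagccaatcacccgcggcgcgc
Pex11a, chr7:79743132-79743381, minus strand: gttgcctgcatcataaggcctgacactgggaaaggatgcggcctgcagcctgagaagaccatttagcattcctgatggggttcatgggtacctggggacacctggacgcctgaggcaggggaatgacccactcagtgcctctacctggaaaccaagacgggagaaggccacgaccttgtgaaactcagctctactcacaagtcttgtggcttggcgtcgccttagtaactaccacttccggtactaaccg

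The hexamer occurred once in the Cpt1a window, ending 88 bases before the start, and was not found in the windows of Ppara, Pex11a and Apoe. It was present in 14.0% of 32841 windows of the same length, and the exact repeat with a 1-base spacer in 0.0335%, none of them a window of these genes. The Ppara window was rich in G and C, at 76.4%, against 59.6% for Cpt1a, 55.6% for Pex11a and a median of 52.4% over all windows. A match is a run of letters and not a measured binding site, and a window without one says only that these letters are not in it.

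**Figure D1:**
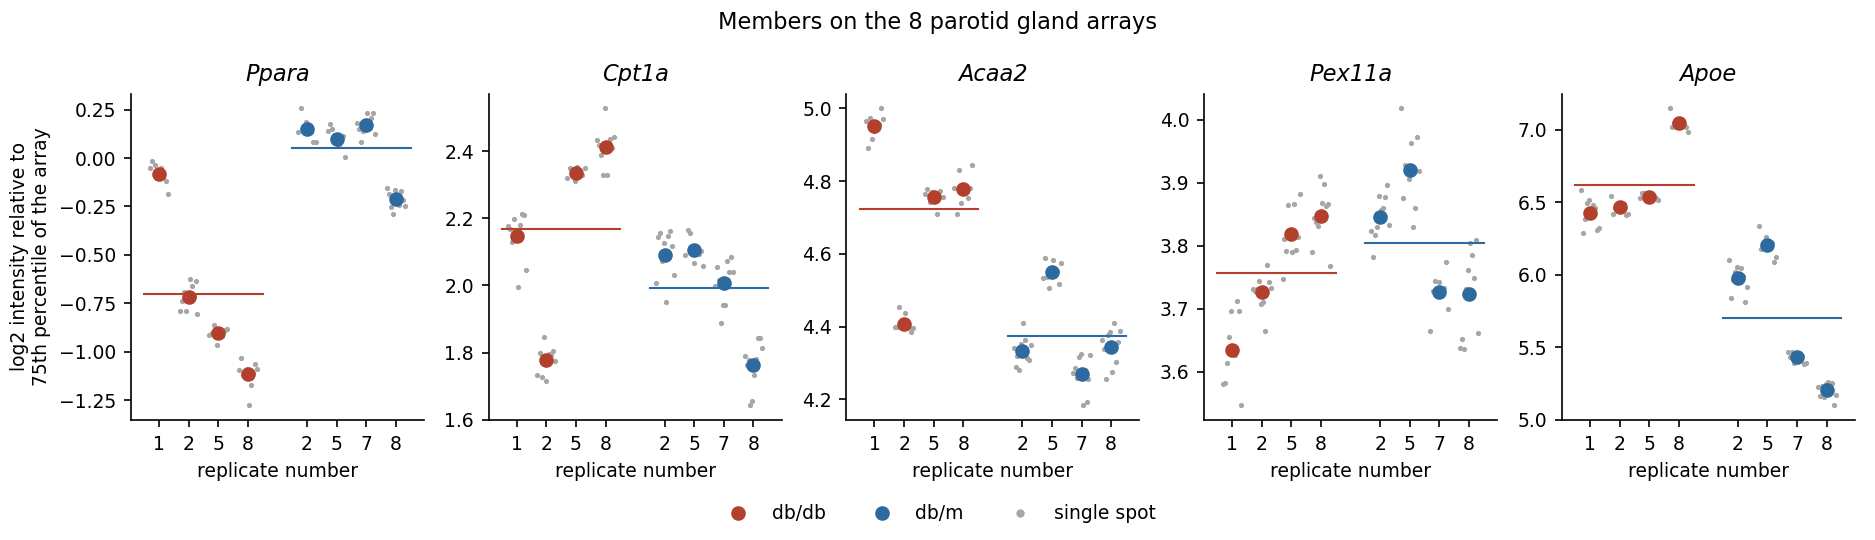
Log2 intensity relative to the array's 75th percentile (vertical axis) for each gene on the 4 db/db (red) and 4 db/m (blue) arrays, labelled by replicate number. Large points are means over the spots, small grey points single spots, and lines group means; Apoe is the gene whose groups do not overlap, and Ppara spans 1.04 in db/db against 0.38 in db/m.

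Ppara, the receptor, was the dimmest of these genes, near the array's 75th percentile in db/m, and well above background on all 80 of its spots. Its mean processed intensity was 326.2, 219.9, 202.0 and 175.1 on db/db replicates 1, 2, 5 and 8. On db/m replicates 2, 5, 7 and 8 it was 354.5, 344.1, 391.1 and 290.1. The local background beside these spots lay between 16 and 23. On the scaled log2 axis the db/db values were -0.08, -0.72, -0.90 and -1.11, and the db/m values were 0.15, 0.10, 0.17 and -0.21. Of the db/db arrays, 3 of 4 lay below all db/m arrays, and db/db replicate 1 lay above db/m replicate 8, so the groups overlapped. The difference was -0.76 ± 0.21 (SE, limma adjusted p = 0.0244), from -0.70 ± 0.45 in db/db to 0.05 ± 0.18 in db/m (SD, n = 4 each). Of all tested probes, 11.9% (6512) were called lower in db/db and 15.9% (8664) higher, a split that turned to 8763 lower and 7479 higher with normexp background correction. A larger absolute difference than that of Ppara was found for 9.68% of probes.

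The spread of Ppara among db/db arrays was 2.50 times that among db/m arrays as an SD. It depended on db/db replicate 1, at -0.08 against -0.72, -0.90 and -1.11 on the others, and the SD ratio was not tested. The 10 spots on a single array had an SD between 0.0295 and 0.0673, and the standard error of their mean was at most 0.0213. At the 6 spot positions that were unflagged on all arrays, the db/db minus db/m difference ran from -0.79 to -0.73. Spots of 1 array share their RNA, so this measures printing and reading precision and not the difference between mice. Other properties of the arrays moved with Ppara inside the db/db group: the 75th percentile intensity was 345.2 on replicate 1, where Ppara was highest, 361.5 and 377.3 on replicates 2 and 5, and 378.9 on replicate 8, where it was lowest. These arrays occupied slide columns 1 to 4 in the same order. The part of brightness and of slide column in the spread was not tested. Within slide columns, which pair 1 db/db with 1 db/m array, the difference was -0.23, -0.82, -1.07 and -0.90, below 0 in each, and with the column as a block the adjusted p was 0.0181. Without db/db replicate 1 the difference was -0.96 (adjusted p = 0.0018). Leaving out db/db replicate 2, 5 or 8 or db/m replicate 2, 5 or 7 gave -0.75, -0.69, -0.62, -0.72, -0.74 and -0.72 and ended the call, with adjusted p from 0.0544 to 0.0697.

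Cpt1a, the entry step of mitochondrial fatty acid oxidation and the gene whose window holds the hexamer, did not pass the test. Its levels were 2.15, 1.78, 2.34 and 2.41 on db/db replicates 1, 2, 5 and 8. They were 2.09, 2.11, 2.01 and 1.76 on db/m replicates 2, 5, 7 and 8. Of the db/db arrays, 3 of 4 lay above all db/m arrays, and db/db replicate 2 lay beside the lowest db/m array. The difference was 0.18 ± 0.15 (SE, limma adjusted p = 0.413), with a 95% interval from -0.16 to 0.51. Of all tested probes, 58.4% had a larger absolute difference. Single arrays weighed on it: the difference was 0.31 without db/db replicate 2 (adjusted p = 0.102), and 0.12, 0.09 and 0.10 without db/db replicate 5, db/db replicate 8 and db/m replicate 8. Within slide columns it was 0.06, -0.33, 0.33 and 0.65, so its sign varied.

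Acaa2, the mitochondrial thiolase, had levels of 4.95, 4.41, 4.76 and 4.78 on db/db replicates 1, 2, 5 and 8. On db/m replicates 2, 5, 7 and 8 it had 4.33, 4.55, 4.27 and 4.34. Again 3 of 4 db/db arrays stood above all db/m arrays, and db/db replicate 2 was the exception. The db/db mean was 4.72 ± 0.23 and the db/m mean 4.37 ± 0.12 (SD, n = 4 each). They differed by 0.35 ± 0.12 (SE, limma adjusted p = 0.0653). Its unadjusted p was 0.0203, and its 95% interval ran from 0.07 to 0.63. Without db/db replicate 2 the difference was 0.45 and the adjusted p 0.0172. It was also called with normexp background correction (difference 0.38, adjusted p = 0.0246) and with a trended and robust prior (adjusted p = 0.0388). The call was not reached with any other array left out, with adjusted p from 0.0604 to 0.140, or with slide column as a block (0.130). Within slide columns the difference was 0.62, -0.14, 0.49 and 0.43, so its sign varied. Cpt1a and Acaa2 thus shared their low db/db array, and that array had the second highest Ppara level of its group.

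Pex11a, which takes part in the division of peroxisomes, was the least variable of the 5 genes. Its levels were 3.63, 3.73, 3.82 and 3.85 on db/db replicates 1, 2, 5 and 8. They were 3.85, 3.92, 3.73 and 3.72 on db/m replicates 2, 5, 7 and 8. The groups covered nearly the same range, and their SDs were 0.0965 (db/db) and 0.0962 (db/m). The difference was -0.05 ± 0.09 (SE, limma adjusted p = 0.728), and its 95% interval from -0.24 to 0.15 leaves out changes beyond 1.18-fold down or 1.11-fold up. Among tested probes, 87.7% had a larger absolute difference. Within slide columns it was -0.21, -0.19, 0.09 and 0.13.

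Apoe, the lipoprotein ligand, was the gene of the 5 with the highest difference. Its processed intensity was 29771, 31997, 35041 and 50037 on db/db replicates 1, 2, 5 and 8. On db/m replicates 2, 5, 7 and 8 it was 19999, 23730, 15002 and 12403. No spot was saturated. The scaled levels were 6.43, 6.47, 6.54 and 7.04 in db/db and 5.97, 6.21, 5.43 and 5.21 in db/m, so the lowest db/db array stood above the highest db/m array. That separation was also seen for 16.9% of the 54590 probes with a value on all arrays. The db/db mean was 6.62 ± 0.29 and the db/m mean 5.70 ± 0.47 (SD, n = 4 each). They differed by 0.91 ± 0.23 (SE, limma adjusted p = 0.0179), and 6.54% of tested probes had a larger absolute difference.

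The spread of Apoe was wider in db/m than in db/db, the reverse of Ppara, on 4 arrays per group and without a test of spread. Its db/m values spanned 1.00, from the highest on replicate 5 to the lowest on replicate 8. The SD of the 10 spots on 1 array was at most 0.0976, and at all 10 spot positions the difference lay between 0.90 and 0.97. Within slide columns the difference was 0.45, 0.26, 1.11 and 1.84, above 0 in each but of unequal size, and with the column as a block the limma adjusted p was 0.0513. The call held with each array left out in turn. The difference was then lowest, at 0.75, with db/m replicate 8 gone and highest, at 1.08, with db/m replicate 5 gone, and the adjusted p ran from 0.0094 to 0.0473. Of the listed cell type markers, 0 of 8 macrophage and 0 of 8 adipocyte markers had a named probe. Over all 12 cell type lists, 2 of 73 markers had a named probe. Only ten-spot probes were paired with genes here, so the other probes were not searched for these markers. Mzb1, which plasma cells express, rose by 1.09 ± 0.16 in db/db (SE, adjusted p = 0.00145), at 1.18, 1.00, 0.65 and 1.43 against 0.20, 0.01, -0.16 and -0.12, with both groups in the array order above. Mbp, a myelin gene, differed by 0.23 ± 0.12 (adjusted p = 0.203). The part of plasma cell content in the Apoe difference was not tested.

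**Figure D2:**
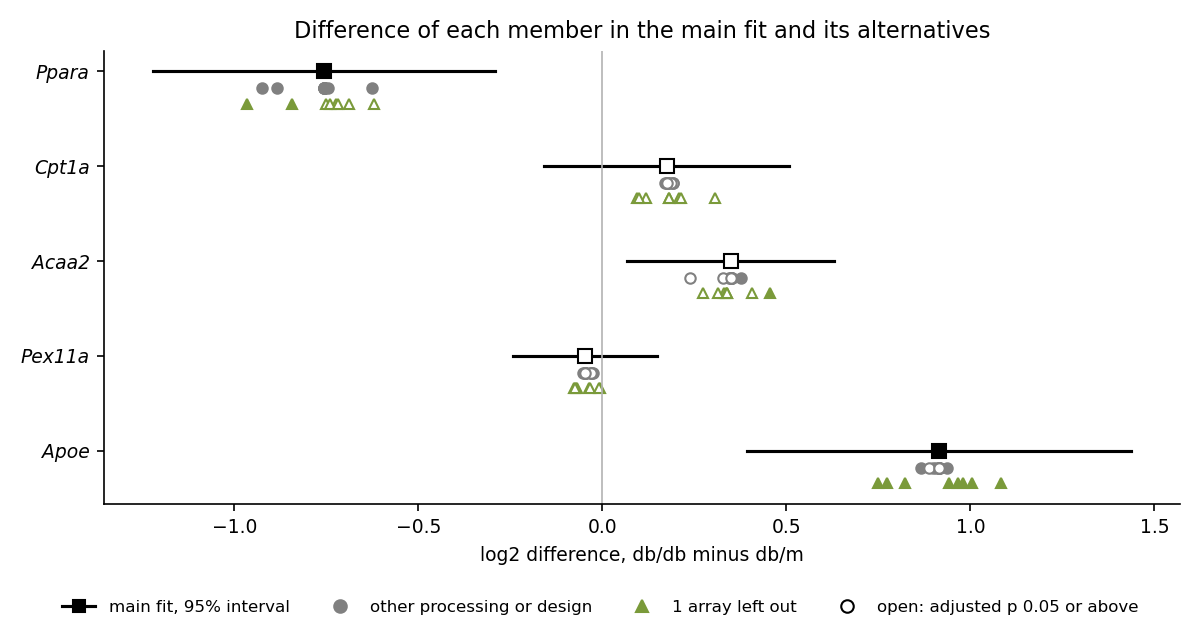
Log2 difference, db/db minus db/m (horizontal axis), for each gene. Black squares with bars are the main limma estimate and its 95% interval, grey circles other processing or design choices, green triangles fits with 1 array left out, and open symbols have an adjusted p of 0.05 or above; some symbols overlap. Ppara stays between -0.96 and -0.62 and Apoe between 0.75 and 1.08, and Pex11a lies between -0.08 and -0.01.

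Ppara was then set against the other 4 genes array by array. The log2 value of each gene minus that of Ppara on the same array removes any scaling of the array, and its change between groups shows unequal change, not which probe is brighter. Relative to Ppara, Cpt1a was higher in db/db by 0.93 ± 0.31 (SE), Acaa2 by 1.11 ± 0.23 and Apoe by 1.67 ± 0.39. For each of these 3 genes the groups did not overlap, and the two-sided exact permutation p was 0.0286, which is as low as 4 arrays against 4 can give, and 0.0381 after Benjamini-Hochberg adjustment over the 4 pairs. For Pex11a the difference was 0.71 ± 0.28 and the exact p 0.0857, since db/db replicate 1 lay within the db/m range. The 4 pairs share the Ppara values and are not independent.

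The values show the gap array by array. In db/db all 4 differences rose in the order of slide columns 1 to 4, whose part was not tested. Cpt1a minus Ppara was 2.23, 2.50, 3.24 and 3.53 on db/db replicates 1, 2, 5 and 8. On db/m replicates 2, 5, 7 and 8 it was 1.94, 2.01, 1.84 and 1.98, an SD of 0.0733 against 0.612 in db/db. That db/m SD rests on 4 arrays, with both Cpt1a and Ppara lowest on db/m replicate 8, and the difference in SD was not tested. It was the lowest of the 4 pairs, with db/m SDs of 0.217 for Acaa2, 0.163 for Pex11a and 0.384 for Apoe. Acaa2 minus Ppara was 5.03, 5.12, 5.66 and 5.89 in db/db and 4.18, 4.45, 4.10 and 4.56 in db/m. Pex11a minus Ppara was 3.71, 4.44, 4.72 and 4.96 in db/db and 3.69, 3.82, 3.56 and 3.94 in db/m. Of the 1.11 for Acaa2, 0.76 was the change of Ppara, and of the 0.93 for Cpt1a as much. Widening relative to Ppara was common: 35.4% of the 54589 other probes lay wholly higher in db/db relative to Ppara. So did 64.3% of the 42 other protein coding genes with a named probe. The 3 of 4 genes here (Cpt1a, Acaa2 and Apoe) are thus not read as particular to these genes or to PPAR alpha targets.

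**Figure D3:**
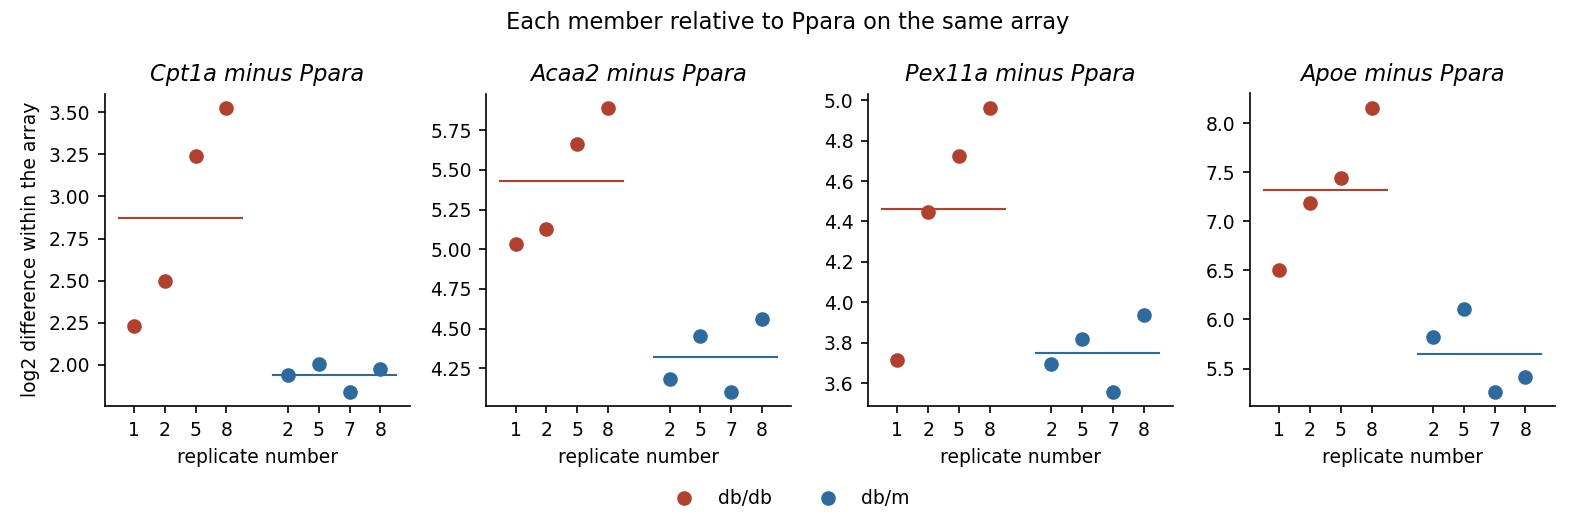
Log2 value of Cpt1a, Acaa2, Pex11a and Apoe minus that of Ppara on the same array (vertical axes, 1 scale per panel), for the 4 db/db (red) and 4 db/m (blue) arrays by replicate number, with lines at the group means. The groups are apart for Cpt1a, Acaa2 and Apoe, while Pex11a on db/db replicate 1 (3.71) lies among the db/m values.

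Whether the other genes followed Ppara from array to array was tested on deviations from the group means over the 8 arrays, since the groups form separate clusters. Pearson's r with Ppara was -0.136 for Cpt1a, 0.316 for Acaa2, -0.526 for Pex11a and -0.159 for Apoe. Spearman's rho was -0.310, 0.0476, -0.429 and -0.190 in the same order. The exact permutation p within groups was 0.816, 0.622, 0.224 and 0.682 for r and 0.595, 0.938, 0.342 and 0.649 for rho, so none of the 4 relations passed (all 0.816 for r and 0.866 to 0.938 for rho after Benjamini-Hochberg adjustment). Without db/db replicates 1 and 8, the arrays farthest from the median Ppara deviation, r was 0.232, -0.0978, 0.175 and 0.549, the opposite sign in each case. The exact permutation p was 0.75, 0.646, 0.896 and 0.354. Here the deviations were not taken anew from the means of the arrays left, unlike with 1 array left out. No relation passed with db/db replicates 1 and 8 or with both left out. Of the db/db arrays, replicate 1 had the highest Ppara and the lowest Pex11a and Apoe, and replicate 8 the lowest Ppara and the highest Cpt1a, Pex11a and Apoe. Without db/m replicate 8, r of Ppara with Pex11a was -0.786 (exact permutation p = 0.00694, before adjustment). That p is as low as the arrays left can give. It was the only p below 0.05 among all relations with 1 array left out, and it is not read as a relation. Without db/db replicate 1, r of Ppara with Pex11a was -0.0218 (exact permutation p = 0.965).

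Among the 43 other named genes tested, those with deviations most like each of the 5 were listed by Pearson's r over the 8 arrays, as a description with no test. For Apoe these were Cav2, a caveolin gene, at 0.891 and Bambi, a decoy receptor for TGF-beta family ligands, at 0.865. For Pex11a they were Cav2 at 0.875 and Apoe itself at 0.863. Cav2 had levels of -0.12, 0.08, -0.18 and -0.38 on db/m replicates 2, 5, 7 and 8, where Apoe had 5.97, 6.21, 5.43 and 5.21, so both were lower on replicates 7 and 8. In db/db it had 0.48, 0.53, 0.65 and 0.68, in the same order as Pex11a and Apoe. That order is also the order of slide columns 1 to 4 and of rising 75th percentile intensity, whose part was not tested. Pex11a followed Apoe across arrays within groups while the group difference was -0.05 for Pex11a and 0.91 for Apoe.

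For Cpt1a the most similar genes were Gpi1, a glycolytic isomerase, at 0.910 and Rab5a, an early endosome GTPase gene, at 0.849. Gpi1 had 5.53, 5.39, 5.66 and 5.75 in db/db and 4.74, 4.77, 4.63 and 4.66 in db/m, and like Cpt1a it was lowest on db/db replicate 2. For Acaa2 they were Spats1 at 0.675 and Hyal3, a hyaluronidase family gene, at 0.664. For Ppara they were Gm9789 at 0.833 and Taf1a, which serves RNA polymerase I transcription, at 0.795. Taf1a was highest on db/db replicate 1, at 1.26 against 0.94 to 0.99 on the others, and lowest in db/m on replicate 8, at 0.32. Apart from Apoe beside Pex11a, none of these genes was on the fatty acid oxidation, peroxisome or lipoprotein lists. Of the 43 other genes, r was above 0 with 34 for Cpt1a, 31 for Acaa2, 25 for Apoe and 21 each for Pex11a and Ppara. A positive r with Cpt1a or Acaa2 was thus common among the named genes. All 8 arrays share 1 scan date.

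**Figure D4:**
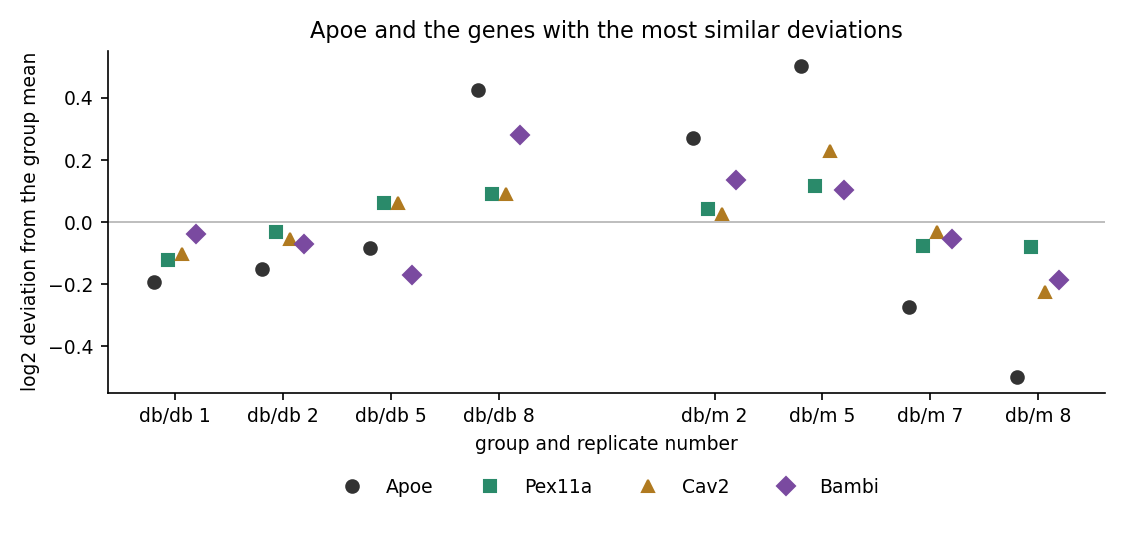
Log2 deviation from the group mean (vertical axis) of Apoe, Pex11a, Cav2 and Bambi on each of the 8 arrays (horizontal axis, group and replicate number). All 4 genes are above the group mean on db/db replicate 8 and db/m replicates 2 and 5, and below it on db/db replicates 1 and 2 and db/m replicates 7 and 8.

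The wider pathways were thinly covered by named probes, since only ten-spot probes were paired with genes here. Of 52 listed genes of fatty acid oxidation and PPAR signalling, 3 had a named probe (Ppara, Cpt1a and Acaa2), of which 1 was lower and 2 did not pass. Of 39 peroxisome genes 1 had a named probe, Pex11a. Of 41 genes of lipoprotein and cholesterol handling 1 had a named probe, Apoe, which was higher. The median difference of the 5 genes was 0.18, against 0.03 over all tested probes. The 5 differences ran from -0.76 to 0.91 and the medians were not compared by a test, so this is not read as a shift of the set.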

How the data were processed

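The authors deposited spot intensities of 8 arrays, read with Agilent Feature Extraction 11.0.1.1 per the file headers, which corrects background and spatial trend within an array. Per the labels' protocols, rRNA was removed and the RNA labelled with Cy3 by random priming. The deposited log2 table (60641 probes, method not given in the sources used here) held no row for the 50 ten-spot probes, and was used for a count alone. Its column medians were all 6.51, and quantile normalization of the processed signals came within 0.01 of 92.6% of it, so its log scale is known and no gene was centred.

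Log2 of the processed intensity minus the 75th percentile of non-control spots was averaged over a probe's spots, leaving out 18 to 55 spots per array marked as outliers (13 of the 400 spots of the 5 genes). Probes well above background on at least 4 arrays (54638 of 60691; 132 whose names start with MM9NEGATIVE, ASSPINKEIN or CUST were set aside) were fitted with limma 3.58.1 in R 4.3.3, two-sided, all 8 arrays, with Benjamini-Hochberg adjustment over all of them. A probe counted as above background where over 0.5 of its spots were. Of 50 ten-spot probes, 46 matched a RefSeq gene (table of GRCm38.p6) by accession. The normexp alternative (offset 50) used the spot median, as the scanner output held no column of spot means. Per the file headers the array design is on mm9, so no probe coordinates are given. The number of arrays limits the precision. Exact tests, tables and plots used Python 3.11.15, scipy 1.17.1, numpy 2.4.6, pandas 2.3.3 and matplotlib 3.10.9. The fit was also run on simulated data with planted shifts, which checks the code and not the results here.

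Groups and replicate numbers came from the titles. The genes, lists, tests and alternatives were chosen with earlier results of these data known. The rule for named genes took the 5 genes and, for each, the 2 other named genes with the most similar deviations. It also took all genes of 3 pathway and 12 cell type lists that had a named probe.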

Additional observations from a re-analysis of the deposited data

How the results depend on the processing

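No difference of the 5 genes changed sign in 18 alternatives each. Slide column as a block gave 0.91 for Apoe (adjusted p = 0.0513) and left 1 of the 5 genes called. The replicate block gave 0.89 for Apoe (adjusted p = 0.115), -0.93 for Ppara (0.0099), 0.24 for Acaa2, 0.19 for Cpt1a and -0.03 for Pex11a, with 1 of the 5 called and 8518 probes in all against 15176; it changed no other call on these genes. Numbers 2, 5 and 8, which alone occur in both groups, showed no sign of pairing (r of deviations -0.0222, -0.128 and -0.174; 0 of 3 closest to their own number), and the labels do not spell out what they mean. Over those 3 pairs, differences relative to Ppara were 1.11 for Cpt1a, 1.16 for Acaa2, 0.89 for Pex11a and 1.81 for Apoe. Acaa2 was called with normexp (0.38) and with a trended and robust prior (0.35), and its median spot SD was 0.0575 with normexp against 0.0348. At 2-fold, 0 of the 5 genes and 2823 probes were called, the added size limit being the cause. Leaving out each array gave -0.96 to -0.62 for Ppara, 0.27 to 0.45 for Acaa2, 1 to 2 of the 5 genes and 10544 to 16164 probes called. It gave r with Ppara of -0.374 to 0.210 for Cpt1a, -0.478 to 0.518 for Acaa2, -0.786 to -0.0218 for Pex11a and -0.517 to 0.194 for Apoe. The sign turned for Cpt1a without db/db replicate 8 (0.210), for Acaa2 without db/db replicate 1 (-0.478) and for Apoe without db/db replicate 1 (0.0899) or 8 (0.194); the cause was not tested. The authors' table gave 14952 called probes. All 400 spots of these genes were well above background. With normexp the Ppara difference was -0.63 (limma adjusted p = 0.0144), against -0.76 in the main fit.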

Other observations

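Of the 43 other named genes, Prdx2, a peroxiredoxin that reduces hydrogen peroxide, had the lowest Pearson's r with Ppara over the deviations of the 8 arrays, at -0.910. It was picked after its value was seen, from 43, and carries no test. Among 28 groups of 4 values of the 5 genes (levels, differences relative to Ppara and spot SDs), 0 held a value far from the others by Dixon's criterion. With 4 values per group the criterion can miss a stray array. Apoe was 7.04 on db/db replicate 8 against 6.43 to 6.54 on the other db/db arrays. Ppara was -0.21 on db/m replicate 8 against 0.10 to 0.17 on the other db/m arrays.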
